A study of Mus musculus with 6 samples.

Results

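Receptor tyrosine kinases read growth factors and cell contacts at the hepatocyte surface, and 10 of their genes were followed in liver tumors driven by active β-catenin: *Egfr*, *Erbb2* and *Erbb3* of the EGF receptor family, *Met*, the HGF receptor, *Ephb2*, *Ephb3* and *Ephb4*, receptors of B-type ephrins, and *Fgfr1*, *Fgfr2* and *Fgfr3*, receptors of fibroblast growth factors. The 10 genes were chosen by name, were all found among the 35683 genes of the tables, and 9 of them were detected, which stands here for a mean of 1 TPM or more, as were 12518 genes in all. TPM is a transcript level scaled for transcript length and depth. RNAseq was performed on 6 macroscopic tumors, 3 from mouse 2 (M2T1, M2T2 and M2T3) and 3 from mouse 1 (M1T1, M1T2 and M1T3). Both were males on a C57BL/6 background and carried *Ctnnb1* ex3/+, an allele from which Cre makes a constitutively active β-catenin, together with *MUP-uPA*, a hepatocyte transgene that causes chronic liver injury, and *R26* tdT, a tdTomato reporter (CMRtdT). Feeding with a high-fat diet (HFD) began at an age of 6 weeks. Cre was delivered at 8 weeks by AAV8-TBG-Cre, a virus with the hepatocyte promoter TBG, and tumors were collected 6.5 months after that. No control liver was analysed here, so the values say how tumors differ from each other and not from normal tissue. The 3 tumors of a mouse come from the same animal, so a comparison of mouse 2 with mouse 1 sets 2 animals side by side over the spread of their tumors.

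A receptor of this class has a ligand-binding part outside the cell and a kinase inside it. Ligand binding brings receptor molecules together, the kinases phosphorylate each other, and adaptors such as GRB2 and SHC1 then start the RAS-ERK and PI3K-AKT routes. In the liver, EGFR and MET are the receptors best known for driving hepatocyte proliferation after injury. ERBB3 has almost no kinase activity of its own and signals as a partner of EGFR or ERBB2, while EPHB receptors bind ligands that are themselves held in the membrane of a neighbouring cell. *Ephb2* and *Ephb3* are known as genes that β-catenin and TCF switch on in the intestine.

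The libraries held 19130532 to 27681766 estimated counts, and 3 features of them touch every value given here. M1T1 stood apart. Its summed level of 6 hepatocyte markers was 1096 TPM, against 16660 to 31021 TPM in the other 5 tumors, and all 6 markers, *Alb* and *Hnf4a* among them, were at their lowest there, while *Notum*, a Wnt target gene, was at 1822 TPM, against 17.4 to 101 TPM. M1T2 and M1T3, in turn, lay very close together. Over genes of intermediate counts, the squared difference between these 2 averaged 3.29 times the sampling variance of the counts, against 18.2 to 30.5 times between tumors of mouse 2 and 245 to 297 times between M1T1 and any other tumor. They still differed by more than sampling noise, a measure that leaves out library preparation and so cannot tell whether they are separate tumors. They were kept as separate samples, as labelled. The edgeR calls that rest on them are given a second time with both summed as 1 sample, which was not run with the other tools. They also held low levels of transcripts that were high in M1T1: over 141 genes at 0 in mouse 2 and at 10 TPM or more in M1T1, M1T2 held a median of 1.60% and M1T3 a median of 1.74% of the level in M1T1. Mitochondrial transcripts took 12.9% to 18.4% of the counts in mouse 2 and 6.85% to 8.34% in mouse 1, which lowers the TPM of other genes in mouse 2.

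*Met* and *Erbb3* were the leading receptors, with means of 20.9 ± 4.06 and 19.2 ± 9.0 TPM (SD, n = 6). *Ephb4* followed at 11.3 ± 13.5 TPM, *Egfr* at 10.2 ± 6.16 TPM, *Ephb2* at 9.08 ± 6.21 TPM, *Fgfr1* at 5.41 ± 11.5 TPM, *Fgfr2* at 5.17 ± 7.40 TPM, *Fgfr3* at 3.71 ± 1.37 TPM, *Ephb3* at 1.46 ± 3.13 TPM and *Erbb2* at 0.880 ± 1.73 TPM. The SD of *Ephb4*, *Fgfr1*, *Fgfr2*, *Ephb3* and *Erbb2* exceeds the mean, and neighbours in this order were not separated by their spread: *Met* was above *Erbb3* in 3 of 6 tumors, *Ephb4* above *Egfr* in 2 of 6 and *Egfr* above *Ephb2* in 3 of 6. Without M1T1 the order became *Erbb3* at 22.6, *Met* at 20.7, *Egfr* at 10.4, *Ephb2* at 9.96, *Ephb4* at 5.89, *Fgfr3* at 4.25, *Fgfr2* at 2.19, *Fgfr1* at 0.715, *Ephb3* at 0.189 and *Erbb2* at 0.174 TPM. In those 5 tumors *Met* exceeded *Egfr*, *Fgfr3* exceeded *Fgfr2* and *Fgfr2* exceeded *Fgfr1* in 5 of 5. The summed level of the 10 genes was 70.4, 83.5 and 54.3 TPM in M2T1 to M2T3, against 139, 86.6 and 90.4 TPM in M1T1 to M1T3.

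**Figure D1:**
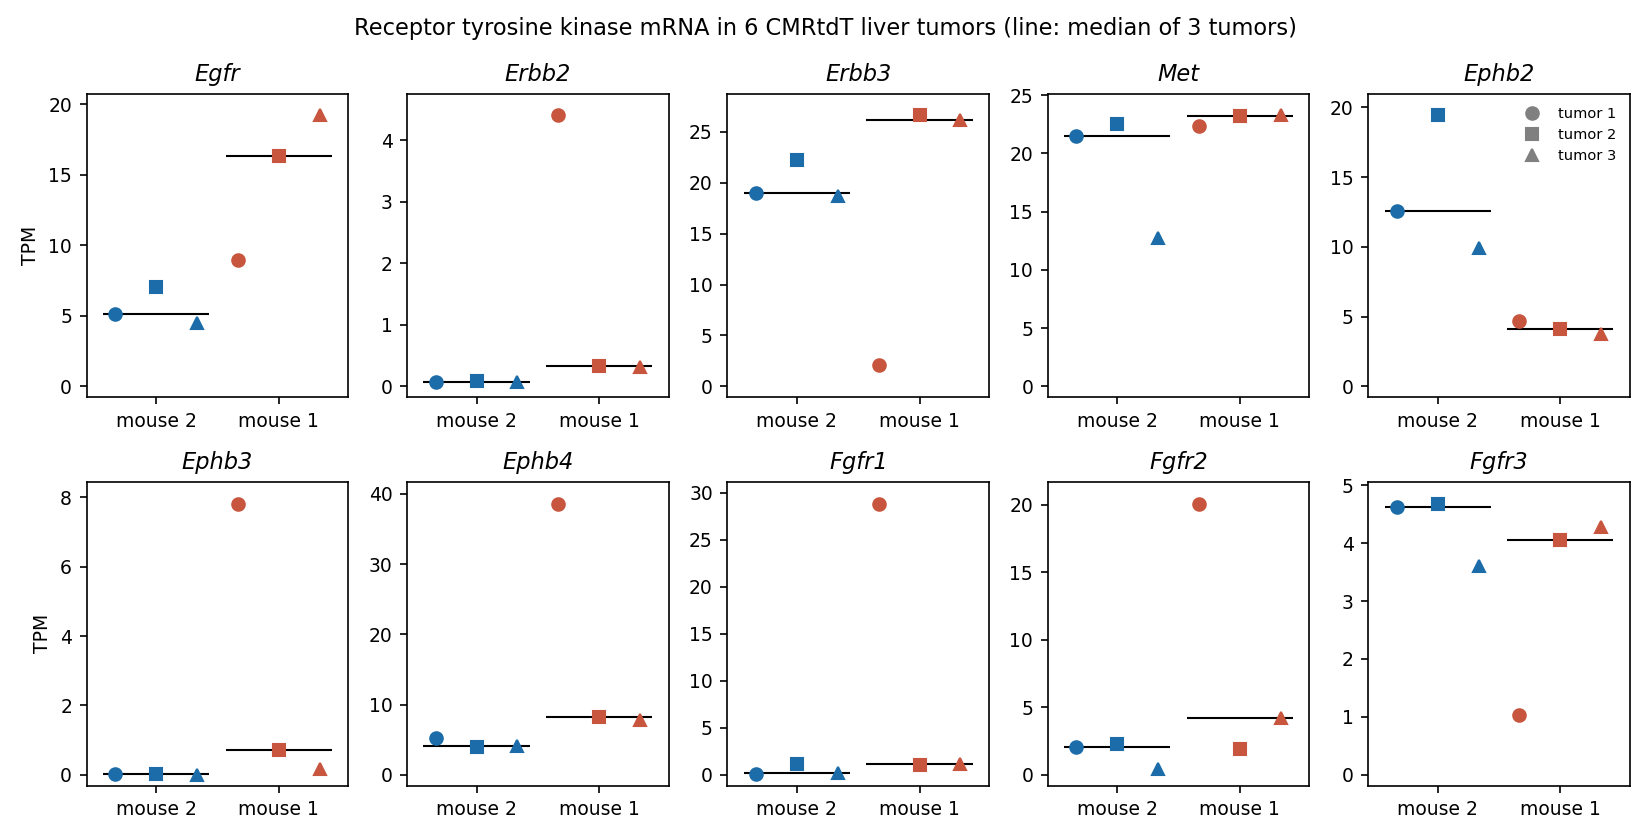
TPM of the 10 receptor genes (vertical axes, linear, starting near 0 and differing between panels) in the 3 tumors of mouse 2 (blue) and the 3 tumors of mouse 1 (red). Each point is 1 tumor, its shape gives the tumor number, and the line is the median of 3 tumors. M1T1 is the highest point for *Erbb2*, *Ephb3*, *Ephb4*, *Fgfr1* and *Fgfr2* and the lowest for *Erbb3* and *Fgfr3*, and for *Ephb2* all 3 points of mouse 2 lie above those of mouse 1.

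Levels in M1T1 were set beside those in the other 5 tumors. It was the highest of the 6 tumors for 5 of the 10 genes, *Erbb2*, *Ephb3*, *Ephb4*, *Fgfr1* and *Fgfr2*, and the lowest for 2, *Erbb3* and *Fgfr3*. Of all detected genes, 62.6% were highest and 21.9% lowest in that tumor, so these counts are near the background. *Met*, *Egfr* and *Ephb2* in M1T1 lay within the range of the other 5 tumors. In the other 5 tumors the first and the second rank were held by *Met* and *Erbb3*, whereas the order in M1T1 was *Ephb4*, *Fgfr1*, *Met* and *Fgfr2*, with *Erbb3* and *Fgfr3* last. By Dixon's ratio, the gap of the outermost tumor to its neighbour over the whole range of log2(TPM + 1), 1 tumor lay past the 95% critical value for 6 values in 7 of the 10 genes, against 38.8% of detected genes. That tumor was M1T1 as the highest for *Erbb2*, *Ephb3*, *Ephb4* and *Fgfr1* (28.5% of detected genes) and as the lowest for *Erbb3* and *Fgfr3* (9.15%), and M2T3 as the lowest for *Met*. *Erbb2*, at a mean of 0.880 TPM, counts among the 10 genes but not among the detected genes behind these percentages. The ratio of *Met* fell to 0.553, short of that value, without mitochondrial genes, and that of *Ephb3* to 0.520 with a pseudocount of 0.1. M1T1 is 1 tumor, and no test between groups was made of it.

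Among the EGF receptor family, *Egfr* (chromosome 11, 16752203 to 16913907, GRCm38) encodes the receptor of EGF, TGFα and their relatives. It was at 5.14, 7.03 and 4.46 TPM in M2T1 to M2T3, against 8.93, 16.4 and 19.2 TPM in M1T1 to M1T3. Every tumor of mouse 2 lay below every tumor of mouse 1, and the highest of the 6 was 4.31 times the lowest. The gap between the mice was small: of the 8.93 TPM in M1T1, 1.74 TPM came from Egfr-204. That transcript of 716 bases has no defined coding sequence and had 13.6 counts there. M2T2, at 7.03 TPM, was the nearest tumor of mouse 2 and had none of it. *Egfr* was 1 of 4 genes of the group that did not overlap with mouse 2 lower, the others being *Erbb2*, *Ephb3* and *Ephb4*, whereas 41.9% of all detected genes were placed so, and 3 of the 4 were detected.

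In edgeR's quasi-likelihood test on the counts of 6 tumors, *Egfr* had a log2 fold change of -0.67 in mouse 2 over mouse 1 (SE 0.41, adjusted p = 0.592). Without M1T1 it fell in mouse 2 by 1.0 on the log2 scale (edgeR, SE 0.15, adjusted p = 0.048), a call that 0.837% of 13374 genes shared in that direction. DESeq2 (adjusted p = 3.5e-06) and limma-voom (adjusted p = 0.030) called it on those 5 tumors too, against 4.39% and 2.24% of genes. With scaling by library size alone the fold change was -1.25 (edgeR, SE 0.21, adjusted p = 0.060), where 0.98% of genes passed in that direction. With M1T2 and M1T3 as 1 sample, M1T1 still left out, it was -1.02 (edgeR, SE 0.23, adjusted p = 0.565), so the size of the difference was kept with fewer samples and a wider error. By edgeR, the call on *Egfr* therefore needs M1T1 left out, M1T2 and M1T3 counted as separate samples and scaling by more than library size. DESeq2 and limma-voom were not run with M1T2 and M1T3 summed, so for their calls this is not known.

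Transcripts of *Egfr* came in a long and a short form. Egfr-201 encodes the whole receptor in 3630 coding bases and 28 exons, and Egfr-202 has 1965 coding bases in 16 exons and ends before the part that would encode the membrane span and the kinase. The bases at which both coding sequences part are shown from position 2166 to 2250 of each transcript, in exon 16 onward, with 45 shared bases in lower case and the next 40 bases, which belong to 1 form alone, in capitals. Egfr-201 is spliced there to the next exon, and Egfr-202 reads on to its own coding end.
Egfr-201: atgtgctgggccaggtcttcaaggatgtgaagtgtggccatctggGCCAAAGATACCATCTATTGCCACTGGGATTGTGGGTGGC
Egfr-202: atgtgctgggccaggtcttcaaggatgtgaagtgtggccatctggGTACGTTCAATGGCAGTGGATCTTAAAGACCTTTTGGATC
Egfr-201 was at 2.95, 4.03 and 2.28 TPM in M2T1 to M2T3, against 5.62, 8.44 and 8.17 TPM in M1T1 to M1T3. The short Egfr-202 was at 2.19, 3.00 and 2.18 TPM in M2T1 to M2T3, against 1.57, 7.91 and 8.68 TPM in M1T1 to M1T3. The long form did not overlap between the mice and the short form did, because M1T1 had the least of it. In that tumor the short form made up 17.6% of the TPM of *Egfr*, against 42.6% to 48.9% in the other 5, and protein-coding transcripts in all made up 80.5%, against 87.7% in M1T3 and 100% in the rest. By counts the short form made up 7.48% in M1T1, against 18.2% to 23.8% in the other 5. Protein-coding transcripts made up 98.7% of the counts in M1T1 and 99.1% in M1T3. What remained was Egfr-204, a piece of 716 bases that 13.6 and 20.7 counts raised to 1.74 and 2.37 TPM in M1T1 and M1T3. The split between forms is an estimate made from shared fragments, and no test was made of it.

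*Erbb2* (chromosome 11, 98412484 to 98437716) encodes the family member that binds no ligand of its own. It was nearly silent in mouse 2, with 0.0754, 0.0850 and 0.0626 TPM in M2T1 to M2T3, against 4.41, 0.332 and 0.317 TPM in M1T1 to M1T3. These levels rest on 7, 8 and 6 counts in mouse 2 and on 381, 29 and 35 counts in mouse 1. The 7 counts of M2T1 were all assigned to Erbb2-202, a transcript with no defined coding sequence. M1T2 and M1T3 held 7.53% and 7.18% of the *Erbb2* level of M1T1, above the medians of 1.60% and 1.74% over genes silent in mouse 2, and the part of that shared low level in these values was not tested. The log2 fold change was -3.46 (edgeR, SE 1.07, adjusted p = 0.412) with 6 tumors and -1.63 (SE 0.42, adjusted p = 0.112) without M1T1.

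*Erbb3* (chromosome 10, 128567523 to 128589635) showed the reverse arrangement. Its level was 19, 22.2 and 18.7 TPM in M2T1 to M2T3, against 2.14, 26.6 and 26.2 TPM in M1T1 to M1T3. The low value in M1T1 rests on 220 counts, against 2070 to 3376 counts in the other 5 tumors. The 5 other tumors held 8.72 to 12.4 times its level and among themselves differed by 1.43 times at most. The log2 fold change was 0.67 with 6 tumors (edgeR, SE 0.94, adjusted p = 0.806) and 0.13 without M1T1 (SE 0.14, adjusted p = 0.650), and scaling by library size alone turned the sign to -0.13. The patterns most like that of *Erbb3*, by the root mean square difference of centred log2(TPM + 1) over 6 tumors among 12102 genes, were those of *Tmem125* at 0.06, *Slc16a7* at 0.08 and *Cyb5r3* at 0.08.

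*Met* (chromosome 6, 17463349 to 17573980) varied less than *Erbb3* over the 6 tumors, with a coefficient of variation of 19.4% against 47.0%, and more without M1T1, with 21.6% against 16.8%. It was at 21.5, 22.5 and 12.8 TPM in M2T1 to M2T3, against 22.4, 23.2 and 23.3 TPM in M1T1 to M1T3. The highest tumor had 1.82 times the lowest, M2T3 being the only low value, and M1T2 and M1T3 both held 104% of the level of M1T1, nearer than for any other gene of the group. The log2 fold change was 0.39 (edgeR, SE 0.29, adjusted p = 0.659) and turned to -0.044 with scaling by library size alone. The main transcript, Met-203, took 74.6% to 84.1% of the TPM and 97.5% to 98.6% of the counts of the gene. Most of the gap between these shares is Met-206, a piece of 470 bases that 5.86 to 22.8 counts raised to 1.45 to 5.01 TPM. Nearest to *Met* in pattern were *Pcbp2* at 0.05, *Atxn10* at 0.07 and *Alg1* at 0.07, on the same measure as for *Erbb3*.

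Of the ephrin receptors, *Ephb2* (chromosome 4, 136647536 to 136836326) was the 1 receptor with more transcript in every tumor of mouse 2 than in any of mouse 1. It was at 12.6, 19.4 and 9.93 TPM in M2T1 to M2T3, against 4.67, 4.11 and 3.73 TPM in M1T1 to M1T3. The means were 14.0 ± 4.91 TPM in mouse 2 and 4.17 ± 0.476 TPM in mouse 1 (SD, n = 3 each). Only 1.75% of detected genes did not overlap in this direction. The 3 tumors of mouse 1, M1T1 included, lay within 1.25 times of each other.

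The log2 fold change of *Ephb2* was 2.45 with 6 tumors (edgeR, SE 0.26, unadjusted p = 7.2e-05, adjusted p = 0.412), and TMM scaling moved the median gene by 0.51 on the log2 scale relative to library size alone. DESeq2 called it with 6 tumors (2.44, adjusted p = 2.1e-15), in the direction that 1.0% of 13268 genes passed, and limma-voom did not (adjusted p = 0.477). Without M1T1, *Ephb2* rose in mouse 2 by 2.36 on the log2 scale (edgeR, SE 0.22, adjusted p = 0.022), a call shared by 0.419% of 13374 genes, and DESeq2, limma-voom and scaling by library size alone gave the same call, against 5.85%, 1.32% and 0.15% of genes. With M1T2 and M1T3 as 1 sample and M1T1 left out, the value stayed at 2.36 (SE 0.36) and the adjusted p by edgeR became 0.346. Ephb2-201, with 2961 coding bases, took 62.0% to 82.7% of the TPM of the gene, and at least 99.9% of its TPM in each tumor came from protein-coding transcripts.

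*Ephb3* (chromosome 16, 21204620 to 21223309) was almost absent outside M1T1. It had 1, 3 and 0 counts in M2T1 to M2T3, against 583, 18 and 18 counts in M1T1 to M1T3. In TPM these were 0.0145, 0.0354 and 0 in mouse 2 and 7.82, 0.716 and 0.181 in mouse 1. A count of 0 allows up to 3 counts, so mouse 2 is at the limit of detection in each tumor and no fold change is given. The value of M1T2 owes most of its TPM to Ephb3-206, a transcript of 669 bases on which 4.43 counts were placed. M1T2 and M1T3 held 9.16% and 2.32% of the level of M1T1, and the part of the shared low level of M1T1 transcripts was not tested here either.

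*Ephb4* (chromosome 5, 137350109 to 137374522), known for its role in veins and lymphatic vessels, was the most abundant of the 10 receptors in M1T1. It was at 5.27, 3.97 and 4.16 TPM in M2T1 to M2T3, against 38.6, 8.18 and 7.86 TPM in M1T1 to M1T3. M1T1 had 4.72 times the level of the next tumor. The summed level of 7 endothelial markers was lowest in that tumor, at 11.7 TPM, with 28.2 to 33.8 TPM in mouse 2 and 57.0 and 63.6 TPM in M1T2 and M1T3, but its members were not alike. The sinusoidal markers *Clec4g*, *Stab2* and *Lyve1* were at 0.988, 0.180 and 0.449 TPM in M1T1, all lowest there. *Pecam1* was lowest there too, at 3.48 TPM, against 3.97 to 10.3 TPM elsewhere. *Vwf* was at 2.24 TPM, against 0.380 to 1.43 TPM in mouse 2 and 2.41 and 0.932 TPM in M1T2 and M1T3. *Cdh5* and *Tek* lay within the range of mouse 2. Between the mice the log2 fold change was -0.98 (edgeR, SE 0.50, adjusted p = 0.545), and -0.25 (SE 0.20, adjusted p = 0.540) without M1T1. Nearest to *Ephb4* in pattern were *Edc4* at 0.07, *Lrp4* at 0.08 and *Map4k5* at 0.08.

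The fibroblast growth factor receptors split into a pair that was high in M1T1 and 1 that was low there. *Fgfr1* (chromosome 8, 25518759 to 25575718) was at 0.0951, 1.15 and 0.202 TPM in M2T1 to M2T3, against 28.9, 1.03 and 1.11 TPM in M1T1 to M1T3. M1T1 had 25.2 times the next level, on 1821 counts, against 11 to 90 counts elsewhere. Of the 1.15 TPM in M2T2, 0.731 TPM came from Fgfr1-212, a transcript of 453 bases with 3 counts. M1T2 and M1T3 held 3.56% and 3.83% of the level of M1T1.

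*Fgfr2* (chromosome 7, 130162451 to 130266808) was at 2.06, 2.28 and 0.437 TPM in M2T1 to M2T3, against 20.1, 1.93 and 4.24 TPM in M1T1 to M1T3. M1T1 had 4.74 times the next level, and the other tumors of the mice overlapped. *Fgfr3* (chromosome 5, 33721724 to 33737068) was at 4.63, 4.68 and 3.61 TPM in M2T1 to M2T3, against 1.03, 4.05 and 4.28 TPM in M1T1 to M1T3. Outside M1T1 it was the most even gene of the 10, with a coefficient of variation of 10.4%. None of the 3 passed edgeR's test between the mice. The log2 fold change of *Fgfr1* was -4.14 (SE 1.35, adjusted p = 0.412) with 6 tumors and -1.58 (SE 0.54, adjusted p = 0.185) without M1T1. That of *Fgfr2* was -1.61 (SE 0.85, adjusted p = 0.559) with 6 tumors and -0.28 (SE 0.46, adjusted p = 0.775) without M1T1, and that of *Fgfr3* 0.83 (SE 0.68, adjusted p = 0.691) and 0.36 (SE 0.17, adjusted p = 0.304).

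Each of these 3 receptors is spliced in alternative forms that bind different ligands. The last part of the third immunoglobulin-like domain comes from either exon IIIb, the usual form in epithelia, or exon IIIc, the usual form in mesenchyme. In M1T1, transcripts with exon IIIc held 588 counts of *Fgfr2* and those with exon IIIb 60.0 counts, so that IIIc made up 85.2% of the TPM of both forms. It made up 22.7%, 13.6% and 75.7% in M2T1 to M2T3 and 40.3% and 76.2% in M1T2 and M1T3, from 18.9 to 93.1 counts a tumor, and at such counts those shares were not compared. Transcripts with neither exon took 26.6% to 88.4% of the TPM of *Fgfr2*. For *Fgfr1* in M1T1, transcripts with IIIc had 1502 counts and 68.2% of the TPM of the gene, against 38.1 counts with IIIb, while transcripts with neither exon took 19.9% of the TPM and 1 with both exons took 2.67 TPM. For *Fgfr3* the IIIb form had the greater TPM in M2T1, M2T2, M1T2 and M1T3, where IIIc made up 28.5%, 22.7%, 29.9% and 21.2%. IIIc made up 53.1% in M2T3 and 54.1% in M1T1. The share in M1T1 rests on 65.9 counts, against 261 to 391 counts elsewhere, so it was not compared either.

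**Figure D2:**
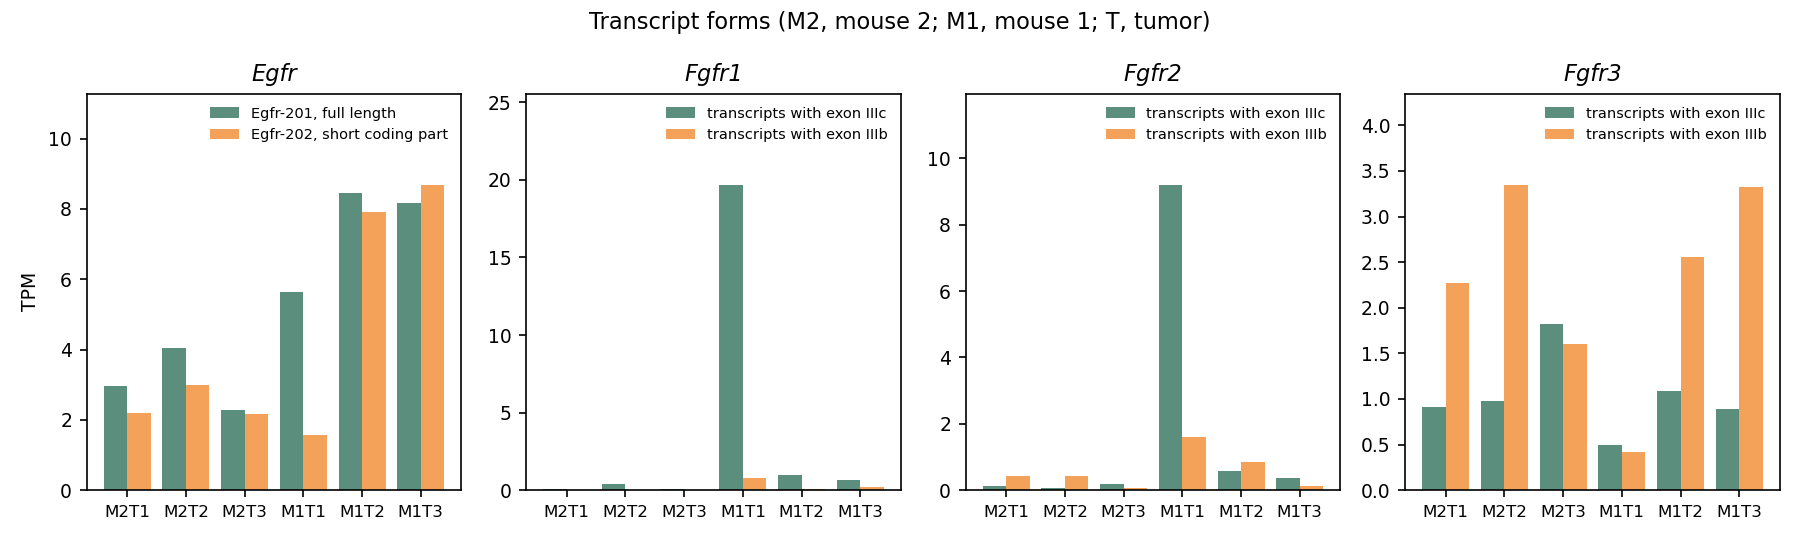
TPM (vertical axes, linear from 0) of transcript forms in M2T1 to M2T3 and M1T1 to M1T3. The panel for *Egfr* sets Egfr-201 (green) beside the short Egfr-202 (orange), and the panels for *Fgfr1*, *Fgfr2* and *Fgfr3* set transcripts with exon IIIc (green) beside those with exon IIIb (orange). The tallest bars for *Fgfr1* and *Fgfr2* are IIIc in M1T1, at 19.7 and 9.19 TPM.

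Set together, the 10 receptors gave no call between the mice by edgeR with 6 tumors, where 0 of 13268 genes passed, with 442 higher and 1007 lower at an unadjusted p under 0.05. By that unadjusted measure *Erbb2*, *Ephb3* and *Fgfr1* were lower and *Ephb2* higher in mouse 2, against 7.59% and 3.33% of all genes. The median log2 fold change of the 10 was -0.82, beside -0.04 over all genes, and -0.27 beside 0.01 without M1T1. Limma-voom called 0 genes, with 3.53% higher and 1.8% lower in mouse 2 at an unadjusted p under 0.05, and DESeq2 called 133 genes higher and 69 lower (0.52%), of which *Ephb2* was the 1 receptor of the group.

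**Figure D3:**
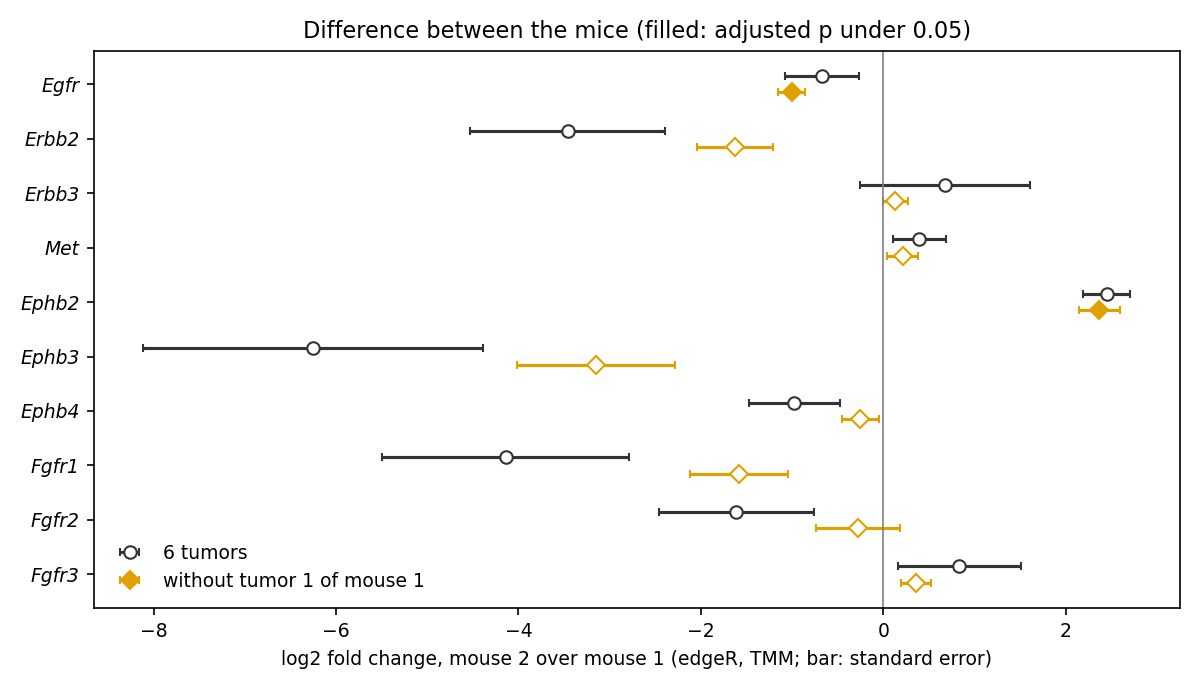
Log2 fold change of each receptor in mouse 2 over mouse 1 (horizontal axis, edgeR with TMM scaling) with its standard error, from 6 tumors (grey circles) and without M1T1 (yellow diamonds). Filled symbols have an adjusted p under 0.05, which were *Egfr* at -1.0 and *Ephb2* at 2.36, both without M1T1, and the position of *Ephb3* depends on the prior count because mouse 2 was at the limit of detection.

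The ligands of these receptors were measured in the same tumors. Of 11 EGF family ligands, 6 were detected, and none passed edgeR's test between the mice with 6 tumors or without M1T1, where 0 had an unadjusted p under 0.05. The most abundant was *Tgfa*. It was at 17.6, 17.8 and 7.58 TPM in M2T1 to M2T3, against 1.82, 27.7 and 27.7 TPM in M1T1 to M1T3. *Btc*, which encodes betacellulin, was also lowest in M1T1, with 0.904 TPM, against 4.77 to 11.4 TPM elsewhere. *Hbegf* ran the other way, at 11.9 TPM in M1T1 and 0.144 to 0.537 TPM elsewhere. *Nrg4*, a neuregulin with ERBB4 as its receptor, was at 0.412, 4.36 and 7.17 TPM in M2T1 to M2T3, against 0.423, 3.19 and 3.23 TPM in M1T1 to M1T3, and its mice overlapped. *Erbb4*, which is not among the receptors followed here, was at 0.00461 to 0.168 TPM.

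For MET, the proteases that activate HGF were divided. *Hpn*, the hepatocyte protease hepsin, was at 213, 206 and 179 TPM in M2T1 to M2T3, against 6.97, 254 and 272 TPM in M1T1 to M1T3, and *Hgfac*, the plasma activator, was at 1.40 TPM in M1T1 and 20.9 to 52.5 TPM elsewhere. *Spint2*, an inhibitor of these proteases, and *Mst1*, the ligand of the related receptor MST1R, were likewise lowest in that tumor, at 11.9 and 1.58 TPM. *St14*, the epithelial protease matriptase, was at 0.143, 0.816 and 0.0628 TPM in M2T1 to M2T3, against 85.4, 7.10 and 7.61 TPM in M1T1 to M1T3. *Hgf* itself was at 6.20 TPM in M1T1 and at 0.567 to 2.17 TPM elsewhere. None of the 7 genes of this list passed the test, with 1 at an unadjusted p under 0.05 for 6 tumors and 2 without M1T1, *St14* having an adjusted p of 0.412 by edgeR with 6 tumors and of 0.076 without M1T1.

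For the FGF receptors, the hormone *Fgf21* and the co-receptor it uses, *Klb*, were both lowest in M1T1. *Fgf21* was at 64.1, 111 and 49.0 TPM in M2T1 to M2T3, against 1.61, 40.4 and 29.8 TPM in M1T1 to M1T3. The mice did not overlap, as for 1.75% of detected genes in this direction (edgeR, log2 fold change 2.15, SE 1.10, adjusted p = 0.546 with 6 tumors and 1.59, SE 0.30, adjusted p = 0.063 without M1T1). *Klb* was at 0.408 TPM in M1T1 and at 8.89 to 17.8 TPM elsewhere, and *Fgf1* at 12.2 and 39.0 to 62.4 TPM. *Fgf20* was a ligand of M1T1, with 786 counts (35.9 TPM), against 0 counts in all 3 tumors of mouse 2 and 9 and 6 counts in M1T2 and M1T3. Each count of 0 allows up to 3 counts. The 3 B-type ephrins, ligands of EPHB receptors, were all highest in M1T1, *Efnb1* at 16, *Efnb2* at 11.9 and *Efnb3* at 5.07 TPM, against 4.20 to 8.96, 0.436 to 1.01 and 0 to 0.197 TPM elsewhere.

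Of 6 other receptors of these families 4 were detected, and 3 of these were highest in M1T1, against 62.6% of detected genes. *Fgfr4*, the main FGF receptor of hepatocytes, was at 0.901 TPM in M1T1 and at 6.68 to 14.3 TPM elsewhere, next to *Erbb3* and *Fgfr3* on the low side. *Fgfrl1*, a relative without a kinase, was at 270 TPM there, against 40.9 to 97.9 TPM elsewhere, *Mst1r* at 27.3 TPM against 0.0334 to 1.53 TPM, and *Ephb6*, which lacks kinase activity, at 26.7 TPM against 0 to 0.856 TPM. Of 9 EPHA receptors, 5 of them tested, *Epha7* was the 1 that passed, with a log2 fold change of -3.76 without M1T1 (edgeR, SE 0.41, adjusted p = 0.030, and 0.401 with M1T2 and M1T3 as 1 sample). Of 22 further receptor tyrosine kinases, 20 of them tested, *Ptk7* (-3.59, SE 0.47, adjusted p = 0.041, and 0.514 with M1T2 and M1T3 as 1 sample) and *Ret* (adjusted p = 0.048 and 0.492) did by edgeR, also without that tumor and lower in mouse 2, a direction in which 0.837% of all genes passed. For *Ret*, at 4, 0 and 0 counts in M2T1 to M2T3, no fold change is given. Those of *Epha7* and *Ptk7* rest on 4, 9 and 5 and on 3, 7 and 3 counts in these tumors. Such counts are near the limit of detection, so the size of both fold changes is uncertain. All 3 were high in M1T1, with *Epha7* at 56.3, *Ret* at 75.6 and *Ptk7* at 19.8 TPM, and M1T2 and M1T3 held 0.822 to 1.78 TPM of each. The part of the shared low level of M1T1 transcripts in these calls was not tested.

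**Figure D4:**
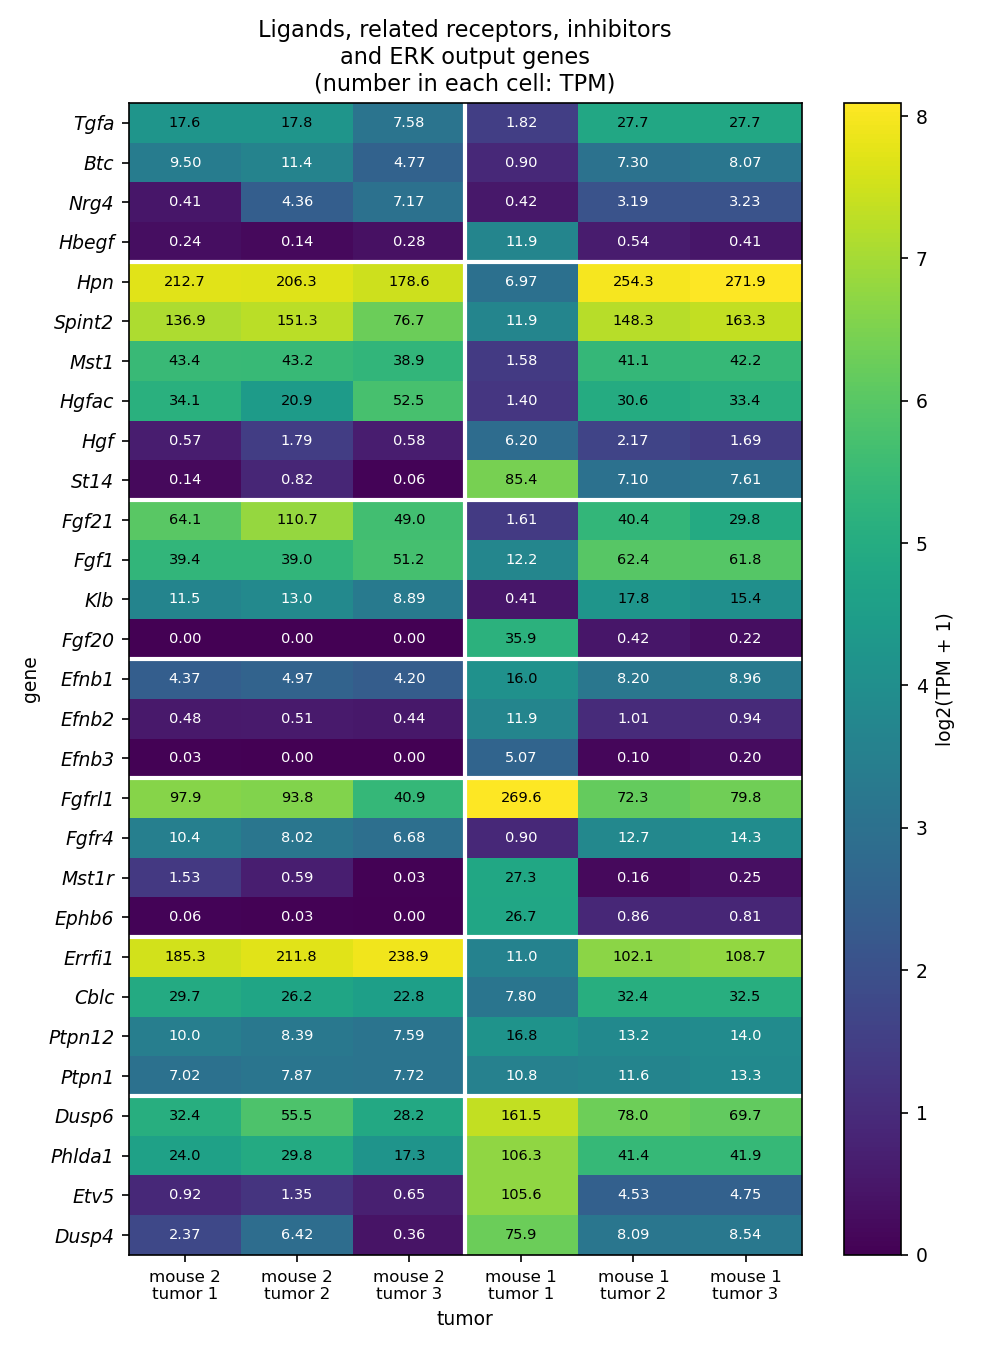
Heat map of log2(TPM + 1) (colour scale) in M2T1 to M2T3 and M1T1 to M1T3, with the TPM printed in each cell. White lines part, downward, EGF family ligands, HGF and its activation, FGF ligands and *Klb*, B-type ephrins, related receptors, receptor inhibitors, and ERK output genes. M1T1 is low in *Tgfa*, *Hpn*, *Fgf21*, *Fgfr4* and *Errfi1* and high in *St14*, *Fgf20*, *Fgfrl1* and all 4 ERK output genes.

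Inside the cell, 19 adaptor and RAS-ERK relay genes were all detected, none passed edgeR's test in either set of tumors, with 2 at an unadjusted p under 0.05 in each, and 14 were highest in M1T1, against the background of 62.6%. *Grb7*, an adaptor of ERBB receptors, was the 1 gene of that list that was lowest there, at 0.778 TPM, against 25.3 to 41.8 TPM. Among 12 receptor inhibitors none passed either, with 0 at an unadjusted p under 0.05 for 6 tumors and 2 without M1T1. *Errfi1*, which encodes the EGFR inhibitor MIG6, was the most abundant, at 185, 212 and 239 TPM in M2T1 to M2T3, against 11, 102 and 109 TPM in M1T1 to M1T3. Its level was higher in every tumor of mouse 2 than in any of mouse 1, as were 1.75% of detected genes. The log2 fold change was 2.11 (edgeR, SE 0.95, adjusted p = 0.503) with 6 tumors and 1.57 (SE 0.24, adjusted p = 0.052) without M1T1.

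Among 16 genes that ERK signaling is known to switch on, many of which then restrain it, 14 were highest in M1T1. The exceptions were *Egr1*, lowest there at 0.249 TPM, against 0.489 to 0.923 TPM elsewhere, and *Fosl1*, at 0 there and at 0 to 0.420 TPM elsewhere. In the list 12 were detected, and all 12 were highest in that tumor and did not overlap between the mice, with mouse 2 lower, against backgrounds of 62.6% and 41.9%. *Dusp6*, a phosphatase of ERK, was at 32.4, 55.5 and 28.2 TPM in M2T1 to M2T3, against 161, 78.0 and 69.7 TPM in M1T1 to M1T3. *Phlda1* reached 106 TPM and *Dusp4* 75.9 TPM in M1T1, against 17.3 to 41.9 and 0.358 to 8.54 TPM elsewhere. *Etv5*, an ETS transcription factor, was at 0.920, 1.35 and 0.654 TPM in M2T1 to M2T3, against 106, 4.53 and 4.75 TPM in M1T1 to M1T3. Of 14 genes tested, 3 had an unadjusted p under 0.05 with 6 tumors and 2 without M1T1. *Etv5* was the 1 gene that passed, beside 0.837% of all genes in that direction, with a log2 fold change of -1.77 without M1T1 (edgeR, SE 0.25, adjusted p = 0.047, and 0.534 with M1T2 and M1T3 as 1 sample), and the part of the shared low level of M1T1 transcripts in that call was not tested.

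The markers of other cell types bear on where a receptor transcript may come from, since in bulk tissue fewer cells of a type and less RNA per cell cannot be told apart. In M1T1, 6 T and NK cell markers summed to 0.432 TPM, with *Cd3e* at 0, against 2.71 to 7.91 TPM in the other tumors, and 6 macrophage markers to 75.1 TPM, against 115 to 414 TPM. The 6 stellate cell and fibroblast markers summed to 26.9 TPM there, within the range of 16.6 to 67.0 TPM elsewhere, and *Dcn* gave 19.1 TPM of that. *Pdgfrb* was highest there, at 2.52 TPM, against 0.319 to 1.63 TPM elsewhere. *Lrat* was lowest, at 0.0964 TPM, against 0.190 to 1.36 TPM, and the rest of that list lay within the range elsewhere. The 6 cholangiocyte markers summed to 44.2 TPM in M1T1, above 4.61 to 21.7 TPM in mouse 2 and 36.4 and 34.5 TPM in M1T2 and M1T3. Of the 44.2 TPM, *Spp1* gave 33.0 TPM. *Krt19*, *Krt7* and *Epcam* were at 5.10, 3.62 and 1.76 TPM, also highest there, against at most 1.83, 0.62 and 1.55 TPM elsewhere. *Cftr* was at 0 and *Sox9* at 0.715 TPM, below 4 of the other 5 tumors. The part of these cells in the receptor levels was not tested.

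Promoter windows of RefSeq (GRCm38.p6), from 250 bases before to 50 after a start site, were at hand for 8 of the 10 genes, 9 windows in all. The core of the TCF motif, CTTTGA or CTTTGT on either strand, was in 0 of these 9 windows, *Ephb2* and *Ephb3* included, and in 31.2% of 32851 windows of all genes. GGGCGG, on either strand, was in 6 of the 9 and in 35.7% of all. G and C made up 62.3% to 75.7% of the bases in every window but that of *Fgfr2*, at 43.7%. The median over all windows was 52.7%. The part of this base composition in both motif counts was not tested. No match says only that these letters are not in this window.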

How the data were processed

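Poly A libraries of 6 excised tumors were sequenced as paired reads on a NovaSeq. The authors deposited 1 table a tumor in the layout of Salmon, with an estimated count for each Ensembl transcript, which need not be whole and has had no normalization. TPM, also deposited by the authors, sets these counts relative to effective length and total, and the deposited lengths are in bases. GRCm38, BWA and Picard are named in the submitters' processing notes. The release of the transcript index was not stated.

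Transcript IDs without version were looked up in GENCODE vM39 (GRCm39), which gave names, exons and sequences (114813 found, 1733 not), and values were added up per gene. Gene positions and promoter windows are from RefSeq (GRCm38.p6). Totals were 19130532 to 27681766 counts, and limits from a count of 0 (3 counts) cover counting error alone.

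Gene sums rounded to whole numbers were tested, mouse 2 over mouse 1, with edgeR 4.0.16 (quasi-likelihood, TMM, filterByExpr, two-sided, Benjamini-Hochberg over all genes tested, threshold 0.05). DESeq2 1.42.0 and limma-voom (limma 3.58.1) were alternatives, in R 4.3.3, and the script was tested on simulated data. Nothing says that the tumors are separate clones, so p-values measure only the spread between these samples. Other alternatives were other scaling, no filter, each tumor left out, a pseudocount of 0.1, no mitochondrial genes and protein-coding transcripts alone. All 10 receptors are named, with the 4 most abundant genes of each further list and the 3 genes nearest in pattern to each of the 3 receptors of highest mean TPM. The other genes, such as *St14*, *Hgf*, *Grb7*, *Ephb6*, *Ret* and *Ptk7*, were named after their values were seen. The receptors and the lists were chosen with earlier results of these data known.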

Additional observations from a re-analysis of the deposited data

Results flagged for a closer look

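In 7 of the 10 receptor genes 1 tumor stood apart by Dixon's ratio, the gap to the nearest tumor over the whole range of log2(TPM + 1), which 38.8% of the 12518 detected genes (mean of 1 TPM or more) did and which chance would do in about 5% of groups. M1T1 was the high one for *Erbb2* (ratio 0.861), *Ephb3* (0.752), *Ephb4* (0.704) and *Fgfr1* (0.797), and 28.5% of all these genes were placed so. It was the low one for *Erbb3* (0.844) and *Fgfr3* (0.797), as were 9.15% of all. *Erbb2*, at a mean of 0.880 TPM, is not among the detected genes behind these percentages. *Met* differed in kind, since the tumor apart was M2T3, at 12.8 TPM (0.864), and the ratio fell short of the limit without mitochondrial genes (0.553). That of *Ephb3* did so with a pseudocount of 0.1 (0.520). *Fgfr2*, at 0.518, *Ephb2* and *Egfr* were not past the limit.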

How the results depend on the processing

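The count of receptors called between the mice depended on M1T1 and on the tool. With 6 tumors edgeR called 0 higher and 0 lower, DESeq2 called 1 higher (*Ephb2*), and leaving out 1 tumor at a time gave 0 to 1 higher and 0 to 1 lower, the calls coming without M1T1, where DESeq2 and limma-voom called 1 higher and 1 lower and library size alone 1 higher and 0 lower. With M1T2 and M1T3 as 1 sample, an alternative added after seeing the data as were the other tools without M1T1, edgeR called 0. Of 168 alternative fold changes 157 kept their direction and side of the threshold, 8 crossed it (*Ephb2* and *Egfr*) and 3 reversed with library size alone: *Met* at -0.044 with 6 tumors and -0.035 without M1T1, and *Erbb3* at -0.13 without it. DESeq2 gave no adjusted p for *Ephb3* and *Fgfr1* with 6 tumors. Without mitochondrial genes the means of *Met* and *Fgfr3* became 28.2 and 5.14 TPM, and the ratio of *Met* 0.553, no longer past the limit. *Ephb3* was no longer apart with a pseudocount of 0.1 (0.520), and *Fgfr2* was with protein-coding transcripts alone (0.672). Leaving out 1 tumor moved the mean of *Egfr* over 8.39 to 11.3, *Erbb2* 0.174 to 1.04, *Erbb3* 17.7 to 22.6, *Met* 20.5 to 22.6, *Ephb2* 7.01 to 10.1, *Ephb3* 0.189 to 1.75, *Ephb4* 5.89 to 12.8, *Fgfr1* 0.715 to 6.47, *Fgfr2* 2.19 to 6.12 and *Fgfr3* 3.52 to 4.25 TPM. Tumor numbers do not pair the mice: deviations of tumors with the same number had r of -0.043 to 0.049 over 3 pairs. With the replicate number as a block edgeR called 0 receptors higher and 0 lower, and *Ephb2* had 2.43.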
